A study of Drosophila melanogaster with 2 samples.

Results

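The 10 genes described here carry the Hedgehog and Wingless signals and their read-out in the segmental pattern of the fly embryo. They were taken by name, hh, ptc, ci, smo, fu, wg, nkd, arm, en and inv, from the 13945 protein-coding genes of the annotation, and each was examined over its gene body and 10 kb to either side. The binding data came from transgenic Drosophila melanogaster that stably express CG12236 with GFP at its C terminus. Whole embryos of both sexes, pooled and aged 0 to 24 h, were used for chromatin immunoprecipitation through the GFP tag (the antibody field of the labels names CG12236 itself). The labels give 2 biological replicates, numbered 1 and 3, in 1 group. There was therefore no condition to compare, and a region can stem from any embryonic tissue or stage in that span. The 4 lists used hold 30000 regions of each replicate, 30000 regions of the replicates pooled, and 2426 peaks that the authors retained by irreproducible discovery rate (IDR), a measure of rank agreement between replicates. The IDR peaks were the 2426 strongest pooled regions, and the rest of the ranked lists, by the authors' own name for them, mix peaks and background. Each region has a summit and a signal, the authors' own value per region, which ran from 16.9 to 1067 in the pooled list with 70.5 as the lowest value of an IDR peak. Signals are given beside their rank within a list, since the authors' sources used here do not state their scale and their medians differed between replicate 1 (12.6) and replicate 3 (16.7). Read depth is unknown. No control list was analysed, and no test was run over the genes, because they were chosen by name with earlier results of these data known and there is 1 group only. Counts are instead set beside the same count over all genes or regions.

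Hedgehog, the product of hh, and Wingless, the Wnt protein encoded by wg, are secreted signals exchanged between neighbouring rows of cells on the boundary of each parasegment. Hedgehog binds Patched (ptc), which otherwise holds back the membrane protein Smoothened (smo), and the signal then passes through the kinase Fused (fu) to Cubitus interruptus (ci), a Gli family transcription factor. Wingless stabilises Armadillo (arm), the fly β-catenin. Engrailed (en) and its paralogue Invected (inv) are homeodomain proteins of the hh-expressing cells, ptc is itself induced by Hedgehog signalling, and Naked cuticle (nkd) is an antagonist of Wingless that Wingless signalling induces.

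The sequences that the results turn on are the 2 promoters with an IDR peak, an intronic IDR peak of nkd, and for contrast the promoter regions of wg and smo, which stayed below the IDR threshold. Each is 300 bases of the RefSeq Release 6 genome (dm6 coordinates), 5′ to 3′ on the strand of the gene. Capitals mark the 11 bases centred on the pooled summit and any match to the motifs given further on.
hh promoter, chr3R:23141892-23142191, minus strand: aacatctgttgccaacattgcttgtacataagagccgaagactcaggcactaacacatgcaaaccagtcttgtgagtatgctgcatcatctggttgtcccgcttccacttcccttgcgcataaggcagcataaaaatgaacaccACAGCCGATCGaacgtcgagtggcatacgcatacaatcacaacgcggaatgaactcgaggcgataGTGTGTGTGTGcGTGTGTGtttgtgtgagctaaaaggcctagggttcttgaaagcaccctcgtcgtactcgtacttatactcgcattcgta
nkd promoter, chr3L:19045406-19045705, minus strand: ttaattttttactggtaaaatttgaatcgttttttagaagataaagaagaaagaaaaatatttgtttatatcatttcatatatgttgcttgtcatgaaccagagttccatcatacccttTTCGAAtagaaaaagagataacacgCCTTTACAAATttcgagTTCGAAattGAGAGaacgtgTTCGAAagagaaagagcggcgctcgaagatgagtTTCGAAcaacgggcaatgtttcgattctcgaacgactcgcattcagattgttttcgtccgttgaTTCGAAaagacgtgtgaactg
nkd intron, chr3L:19024917-19025216, minus strand: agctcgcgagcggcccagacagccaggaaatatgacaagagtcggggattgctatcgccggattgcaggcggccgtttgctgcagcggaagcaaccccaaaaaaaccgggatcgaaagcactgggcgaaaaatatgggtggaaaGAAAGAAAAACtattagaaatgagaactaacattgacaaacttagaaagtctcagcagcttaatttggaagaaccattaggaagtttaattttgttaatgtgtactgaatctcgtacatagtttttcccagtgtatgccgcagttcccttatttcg
wg promoter region, chr2L:7306832-7307131, plus strand: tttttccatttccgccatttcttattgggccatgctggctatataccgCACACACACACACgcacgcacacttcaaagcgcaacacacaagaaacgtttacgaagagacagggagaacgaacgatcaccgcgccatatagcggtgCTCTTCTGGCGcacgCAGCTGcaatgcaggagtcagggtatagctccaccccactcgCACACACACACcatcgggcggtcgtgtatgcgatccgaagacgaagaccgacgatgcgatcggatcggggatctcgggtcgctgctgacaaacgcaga
smo promoter region, chr2L:277231-277530, plus strand: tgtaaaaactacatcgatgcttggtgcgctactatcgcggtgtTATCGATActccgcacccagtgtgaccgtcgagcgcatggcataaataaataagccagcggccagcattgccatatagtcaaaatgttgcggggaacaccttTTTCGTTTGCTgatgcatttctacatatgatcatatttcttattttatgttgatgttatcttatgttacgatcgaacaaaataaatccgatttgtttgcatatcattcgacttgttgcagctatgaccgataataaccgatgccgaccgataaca

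Around the 10 genes lay 9 IDR summits and 154 pooled summits. IDR summits were found at 5 genes: 4 at ptc, 2 at nkd and 1 each at hh, smo and inv. The windows of ci, fu, wg, arm and en held none. With 5 of 10 genes, the group was near the 43.5% of all protein-coding genes that have an IDR summit in a window built the same way, with a median window of 29289 bp for the 10 genes and 22166 bp for all. At promoters, taken as 500 bp to either side of a start site, 2 of the 10 genes (hh and nkd) had an IDR summit, where 10.2% of all genes have one. Every one of the 10 genes had at least 1 pooled summit at its own promoter, against 51.8% of all genes. Among the 154 pooled summits 5.84% were in the IDR list, against 8.09% of all 30000. The genes differed in whether they had a strong region and in where it lay. The plot of summit signals along the genes shows hh with a single strong promoter region, ptc with strong regions on both sides of a weak promoter, and nkd with both kinds.

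**Figure D1:**
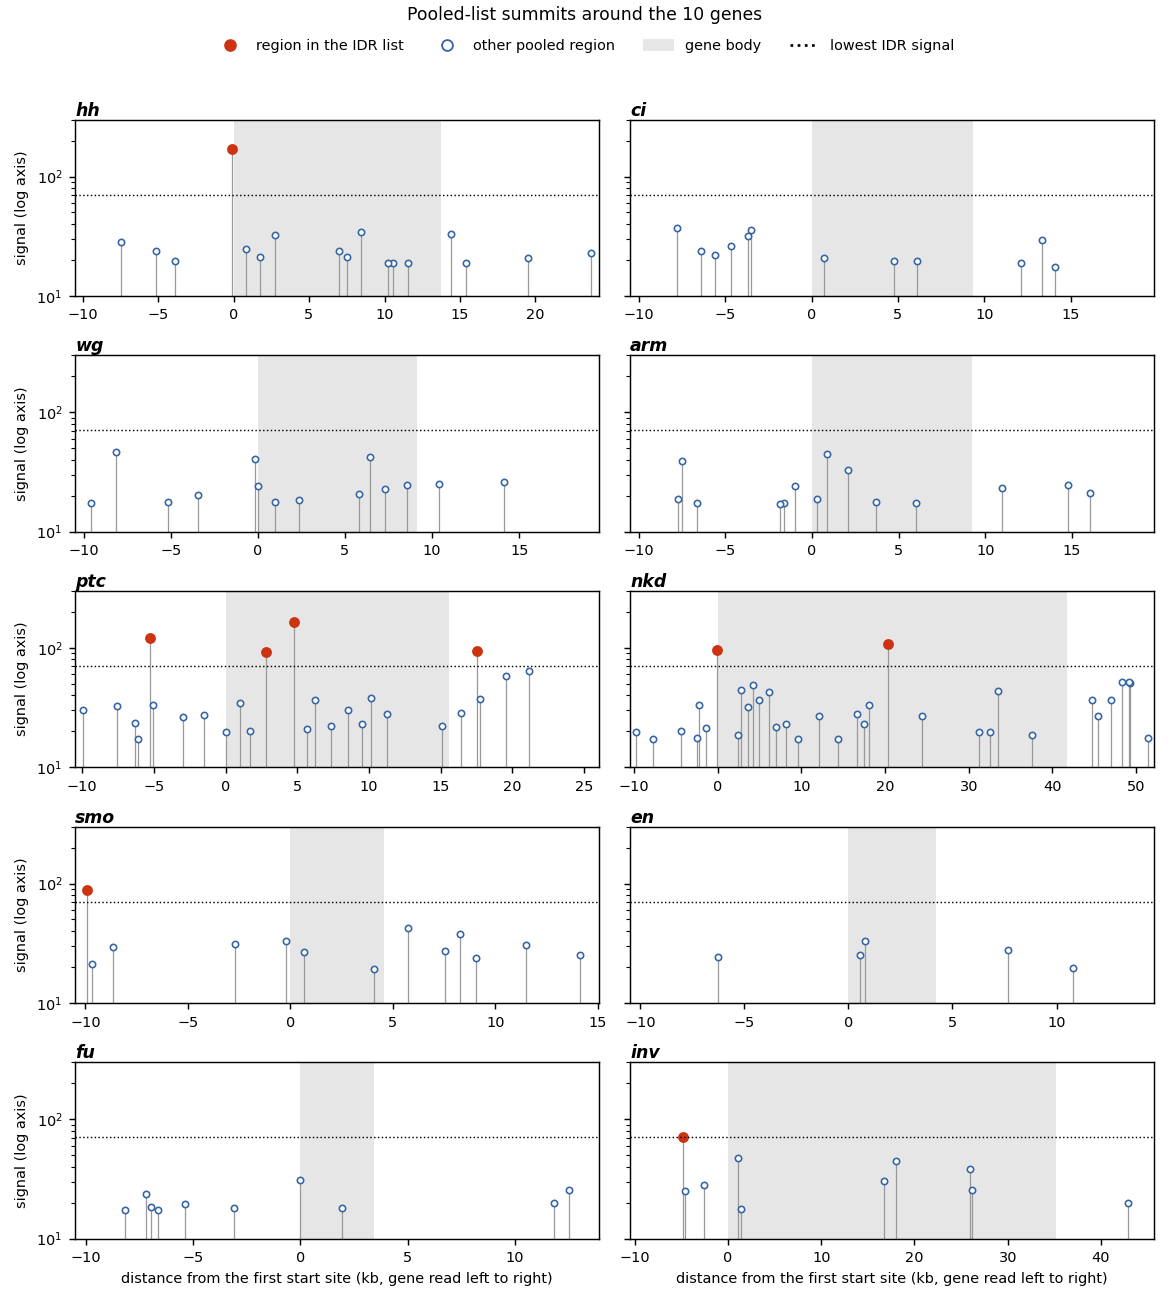
Pooled summits around each of the 10 genes, with the distance from the first start site in kb on the x axis and the authors' signal on a log y axis. Filled points are the 9 IDR summits, open points the other pooled summits, grey the gene body and the dotted line the lowest IDR signal of 70.5. The filled point of hh sits at its start site, the 4 of ptc lie away from it.

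The ligand gene hh (FBgn0004644, 3R 23128169 to 23141906, minus strand) had the strongest region of the whole group. Its IDR peak (3R 23141830 to 23142253) had its summit at -136 bp from the only annotated start site, a signal of 169 and rank 465 in the pooled list. In replicate 1 the same summit had a signal of 80.3 and rank 256, and in replicate 3 a summit 4 bp away had a signal of 84.3 and rank 776. The promoter signal exceeded that of 95.2% of the 7229 genes with a pooled promoter region, and the corresponding shares were 97.5% in replicate 1 and 92.2% in replicate 3. The other 16 pooled summits in the hh window had signals of 18.7 to 34.4. The peak therefore stood alone, with nothing else near the IDR threshold within the gene or 10 kb of it.

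The other ligand gene, wg (FBgn0284084, 2L 7307159 to 7316265, plus strand), had no IDR summit in its window. Its strongest region lay at -8144 bp (2L 7298803 to 7299226) with a signal of 46.1 and rank 5033, and the nearest summit in replicate 1 had a signal of 17.0 (rank 7856), that in replicate 3 a signal of 28.7 (rank 5130). An intronic region at +6417 bp had a signal of 42.3, and the promoter region at -177 bp had a signal of 40.5 and rank 6342. The promoter stood above 54.0% of genes with a promoter region in the pooled list, above 35.9% in replicate 1 (signal 14.4) and above 68.3% in replicate 3 (signal 33.4). In the pooled list these 3 regions were of like strength. Replicate 1 had its strongest summit in the wg window elsewhere, in 3′ untranslated sequence at +8484 bp (signal 26.1, rank 3117), whereas in replicate 3 the promoter summit was the strongest. The nearest IDR summit lay at -11057 bp, just outside the window, with a signal of 85.6 and rank 1761, in intergenic sequence for which wg has the nearest protein-coding start site.

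ptc, the gene of the Hedgehog receptor (FBgn0003892, 2R 8649649 to 8665223, plus strand), held 4 of the 9 IDR summits. Of all protein-coding genes, 2.07% had 4 or more in such a window. The strongest was intronic at +4793 bp (2R 8654230 to 8654653), with a pooled signal of 165 and rank 496, and the replicates gave signals of 82.1 (rank 245, replicate 1) and 82.5 (rank 807, replicate 3). Another intronic peak at +2826 bp (2R 8652263 to 8652686) had a signal of 92.7 and rank 1505, with 33.8 in replicate 1 and 56.4 in replicate 3. Both thus lay within the transcribed part of ptc and were among the 2426 strongest regions of each replicate.

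Upstream of ptc, an intergenic peak at -5262 bp (2R 8644288 to 8644422, a narrow region of 135 bp beside the usual 424 bp) had a signal of 121 and rank 900. Of the 2426 IDR peaks, 484 were narrower than 424 bp. The upstream peak was much higher in rank in replicate 3 (signal 92.9, rank 643) than in replicate 1 (signal 30.6, rank 2276). The fourth peak, at +17519 bp (2R 8666956 to 8667379, signal 94.2, rank 1448), lay beyond the end of ptc in an intron of Acsl, an acyl-CoA synthetase gene whose start site was 997 bp away. The same part of Acsl held the strongest regions of the group outside the IDR list, at +21185 bp (signal 63.7, rank 2871), which is a promoter region of Acsl with its summit 111 bp from a start site, and in an intron at +19541 bp (signal 58.5, rank 3315). At its own promoter ptc had the weakest pooled region of the 10 genes, with a summit at +42 bp, a signal of 19.7 and rank 23648. In the pooled list 8.70% of genes with a promoter region had a lower value. In replicate 1 the ptc promoter signal was 13.7 (rank 12662), above 32.2% of such genes and above those of ci (10.1) and en (13.3). Replicate 3 had no summit within 500 bp of the ptc start site. The 4 IDR peaks of ptc thus all lay more than 500 bp from any protein-coding start site.

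The Smoothened gene smo (FBgn0003444, 2L 277582 to 282167, plus strand) had 1 IDR summit, at -9908 bp, 92 bp inside the edge of the window. That peak (2L 267462 to 267885, signal 88.1, rank 1653) lay at -169 bp from the start site of CG17075, inside Dus1, with a signal of 24.0 and rank 3748 in replicate 1 and a signal of 63.3 and rank 1326 in replicate 3. It is thus a promoter peak of a neighbouring gene. At smo itself, the promoter region at -201 bp had a signal of 32.7 and rank 9421, and it lies within 500 bp of a start site of CG17078 as well. The replicates differed there, with a signal of 30.2 and rank 2306 in replicate 1 and a signal of 12.7 and rank 25177 in replicate 3. The smo promoter was in the top 2426 regions of replicate 1 and far down the list of replicate 3.

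No IDR summit lay in the windows of the other 3 transducers. The kinase gene fu (FBgn0001079, X 18657755 to 18661204, plus strand) had its strongest pooled region at the promoter, at +9 bp (signal 31.0, rank 10375), shared with CG6659. Its promoter signals were 21.1 in replicate 1 and 15.7 in replicate 3. In replicate 3 the strongest fu summit was intergenic, at +12650 bp (signal 25.1, rank 6551). For arm (FBgn0000117, X 1891401 to 1900646, minus strand, 4 start sites) the strongest pooled region was also a promoter one, at -160 bp from the nearest start site (signal 44.4, rank 5367). In replicate 1 the promoter signal was 27.6 (rank 2764, above 76.7% of genes with a promoter region), from a summit at -36 bp. The replicate 1 summit nearest the pooled one had a signal of 11.8 and rank 17029. In replicate 3 the promoter signal was 23.2 (rank 7685, above 49.0%). For ci (FBgn0004859, 4 47710 to 57041, minus strand, 2 start sites) the promoter region at +25 bp was weak (signal 20.7, rank 21693), with signals of 10.1 in replicate 1, from a summit at +461 bp, and 16.6 in replicate 3. The strongest pooled region of ci was intergenic at -7802 bp (signal 37.1, rank 7483), with that of RpS3A as the nearest protein-coding start site, 2364 bp away, and that of a small nucleolar RNA gene, snoRNA:CD-24, 802 bp away. In replicate 1 the strongest ci summit was another one, at -3663 bp (signal 24.8, rank 3476). The nearest IDR summit was 10170 bp before ci, at the promoter of the ribosomal protein gene RpS3A (signal 130, rank 799), and for fu and arm it was 11797 bp and 11640 bp away. In the pooled list the promoter signals of these 3 genes were all below the lowest IDR signal of 70.5, and in replicate 1 that of arm ranked not far past the 2426 strongest regions.

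Among the target and selector genes, nkd (FBgn0002945, 3L 19003741 to 19045449, minus strand) had an IDR peak at its promoter and another deep in the gene. The promoter peak (3L 19045344 to 19045767) had its summit at -107 bp, a signal of 96.5 and rank 1380, with 39.8 (rank 1299) in replicate 1 and 57.0 (rank 1586) in replicate 3. The intronic peak at +20382 bp (3L 19024855 to 19025278) had a signal of 108 and rank 1120, with 36.9 (rank 1511) in replicate 1 and 69.6 (rank 1106) in replicate 3. Both nkd peaks were thus among the 2426 strongest regions of each replicate. The strongest intronic region of nkd outside the IDR list, at +4260 bp, had a signal of 48.8 and rank 4573.

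The homeodomain genes en (FBgn0000577, 2R 11524006 to 11528210, minus strand, 2 start sites) and inv (FBgn0001269, 2R 11474465 to 11509695, plus strand, 2 start sites) are neighbours whose windows share 1 pooled summit. For inv, an intergenic peak at -4806 bp (2R 11469447 to 11469870) had a signal of 71.6 and rank 2362, just inside the IDR list. The nearest summit of replicate 1 had a signal of 29.3 and rank 2468, and that of replicate 3, 104 bp away, a signal of 41.0 and rank 2797, so in neither replicate alone was it among the 2426 strongest. The inv promoter region, inside the gene at -170 bp from the nearest start site, had a signal of 47.6 and rank 4770. It ranked higher in replicate 1 (signal 24.1, rank 3686, above 69.6% of genes with a promoter region) than in replicate 3 (signal 18.7, rank 11910, above 34.9%). For en, the strongest of 5 pooled summits was inside the gene, at +461 bp from the nearest start site (signal 33.3, rank 9064). The promoter signals were 13.3 in replicate 1 and 21.6 in replicate 3. The replicates had their strongest en summits elsewhere, at +7398 bp in replicate 1 (signal 18.1, rank 6823) and at -6132 bp in replicate 3 (signal 25.3, rank 6484). No pooled summit lay in the 5 kb before the first start site of en, where 27.6% of all genes had none. Each replicate had 1 summit in those 5 kb, at -1735 bp with a signal of 10.7 in replicate 1 and at -3590 bp with a signal of 12.3 in replicate 3. The nearest IDR summit to en was 13049 bp before it (signal 71.9, rank 2347), again close to the threshold.

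**Figure D2:**
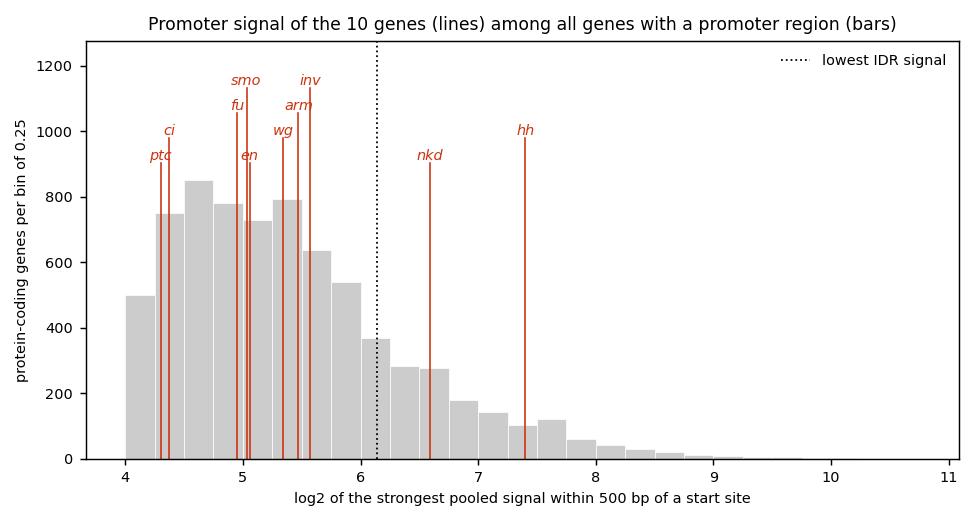
Strongest pooled signal within 500 bp of a start site, on a log2 x axis, for the 10 genes (labelled lines) over a histogram of the 7229 protein-coding genes that have a promoter region (y axis, genes per bin). The lines of hh and nkd lie to the right of the dotted line of the lowest IDR signal (70.5), the other 8 to its left.

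Set side by side by role, 1 of the 2 ligand genes, 2 of the 5 receptor and transducer genes and 2 of the 3 target and selector genes had an IDR summit in the window. At the promoter the counts were 1 (hh), 0 and 1 (nkd). The 5 IDR summits of the receptor and transducer genes were 4 at ptc and the CG17075 promoter peak near smo. Counted with the targets as well, ptc brings them, together with wg, to 3 of 5 genes with 7 IDR summits. The median promoter signal over the 10 genes was 36.9, against 38.1 over the 7229 genes with a promoter region. With 2 to 5 genes per role these counts describe the genes and were not tested. The plot of promoter signals against all genes shows that 8 of 10 fell below the lowest IDR signal. Of the 7229 genes with a promoter region, 1429 had an IDR summit there, so most of those genes fell below it too.

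Replicate 1 and replicate 3 each had a summit within 200 bp of all 9 IDR summits, as for 99.7% of IDR peaks. Of the 154 pooled summits, 66 were matched in both replicates (42.9%, against 43.6% of all pooled regions) and 11 in neither. The share in neither was not counted over all pooled regions, so the 11 have no value to be set beside. The smo window peak and the ptc peak at -5262 bp were weaker by rank in replicate 1, whereas the hh promoter peak and the ptc peak at +4793 bp were stronger by rank in replicate 1. Promoter summits were found at 10 of 10 genes in replicate 1 and 9 of 10 in replicate 3, where ptc lacked one. Over all genes these shares were 51.5% and 50.1%.

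**Figure D3:**
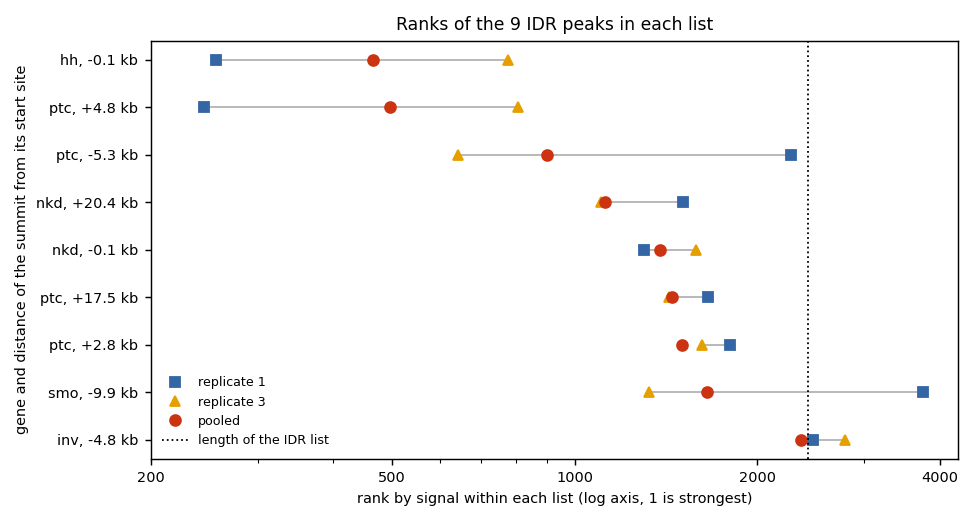
Rank by signal (log x axis, 1 is strongest) of the 9 IDR summits in the pooled list and of the nearest summit in replicate 1 and replicate 3, one row per summit. The dotted line is the length of the IDR list, 2426, and smo (3748 in replicate 1, 1326 in replicate 3) lies past it in replicate 1 while inv (2468 and 2797) lies past it in both.

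In position, 3 of the 9 IDR summits were at a protein-coding promoter (33.3%, against 45.3% of all IDR peaks), and 1 of these was that of CG17075. The remaining 6 were distal, 4 of them intronic and 2 intergenic. For 7 of the 9, the gene whose window held the summit also had the nearest protein-coding start site, and 3 lay inside that gene's own body. The 154 pooled summits comprised 41 at promoters (26.6%, against 28.4% of all pooled regions), 52 in introns, 37 in intergenic sequence, 19 in coding exons, 4 in 3′ and 1 in 5′ untranslated sequence. Neighbouring genes supplied many of the promoter summits, 9 of 10 in the smo window and 5 of 7 in that of arm.

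Listed summits were dense around most of the genes. The median was 4.80 pooled summits per 10 kb of window over the 10 genes, against 2.98 over all genes, and 8 of 10 were above that median. The highest density in the pooled list was at ptc, with 7.31 per 10 kb in the pooled list, 7.59 in replicate 1 and 5.62 in replicate 3, above 98.4%, 98.4% and 91.2% of genes. At nkd the values were 5.51, 5.83 and 5.51, and at smo 5.29, 6.51 and 6.10. At the other end, en had 2.07 and inv 1.81 per 10 kb in the pooled list, above 33.1% and 28.0% of genes. Both stayed below the median of all genes in replicate 1 (2.48 and 2.17, against 3.04) and in replicate 3 (2.48 and 1.45, against 2.91). The replicates disagreed at fu, with 1.71 in replicate 1 and 2.99 in replicate 3 against 4.26 in the pooled list. Most of these summits are weak, with a median signal of 25.1 in the windows against 25.4 in the whole pooled list, so density and strength differ as descriptions.

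**Figure D4:**
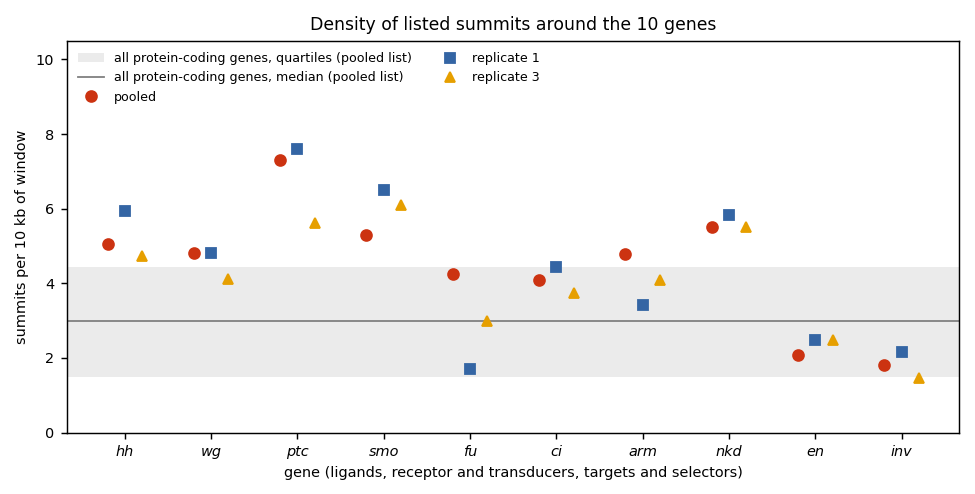
Summits per 10 kb of window (gene body and 10 kb to either side, y axis) for each gene in the pooled, replicate 1 and replicate 3 lists. The grey band and line give the quartiles (1.48 and 4.43) and median (2.98) of all protein-coding genes in the pooled list. The points of ptc lie highest in the pooled and replicate 1 lists, that of smo (6.10) in replicate 3, and those of en and inv lie below the line.

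Motifs were searched on both strands in the 300 bases around 19 summits, the 9 IDR summits and the strongest regions named above. The 9-base Gli family site GACCACCCA, the form known for Ci, occurred once, 136 bp downstream of the ptc summit at -5262 bp. There it lay past the end of that 135 bp IDR region. It fell inside the next pooled region, with its summit at -5061 bp (signal 33.2, rank 9122), which is not in the IDR list. Counting this ptc window, 3 of all 2426 IDR windows (0.124%) and 0.170% of pooled windows held it. A core of the Wingless effector Pangolin, CTTTGAT, was found at the strongest ptc peak, and 4.70% of IDR windows hold it. The DNA replication-related element TATCGATA lay in the smo promoter region, which is not an IDR peak, and in 2.49% of pooled windows and 4.49% of IDR windows. The word CACTGTGC, chosen because of earlier results on these same peaks, which 7.01% of IDR and 2.62% of pooled windows hold, was in none of the 19. Counting overlaps, GAGAG, the core bound by GAGA factor, had 7 matches in the promoter region of ptc and 8 in that of inv. Neither is an IDR peak, and 5.54% of pooled windows and 8.74% of IDR windows had 3 or more. The longer form GAGAGAG occurred 3 times at ptc and 4 times at inv, where 1.51% of pooled windows and 2.14% of IDR windows had 3 or more. The E-box CAGCTG, held by 15.4% of pooled and 15.5% of IDR windows, occurred once each in the wg and inv promoter regions and 2 times in that of en. The hh window had no match to any of these motifs. Nor had the IDR windows of ptc at +2826 bp and +17519 bp, of smo and of the nkd intron. The same held for the windows of the strongest pooled regions of ci, fu, wg and arm.

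After the sequences had been seen, another word was counted. TTCGAA, which is its own reverse complement, occurred 5 times in the nkd promoter window shown above, from position 120 to 285. It was present at all in 262 of 2426 IDR windows and 3082 of 30000 pooled windows. At 3 or more copies it was present in 2 of 2426 IDR windows and 14 of 30000 pooled windows. The nkd window, from which the word was chosen, is itself among the windows of each of these counts. Runs of GTGTGTG, also counted afterwards, were found 4 times in the hh window, 5 times in the inv IDR window (on either strand) and, as CACACAC, 7 times in that of the wg promoter, counting overlaps. The arm window had 3, and 3 or more were present in 3.59% of IDR windows and 3.29% of pooled windows. By base composition the inv IDR window had 51.7% G and C, the hh window 48.3% and the nkd intron window 44.7%, against a median of 38.3% over IDR windows. The IDR windows of ptc had 38.7% to 39%, the nkd promoter 35.7% and the smo IDR window 34%. These matches describe the letters in the windows, and no binding by the named factors was measured.

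The other genes of these pathways were read from 3 lists holding 49 genes, all found in the annotation. IDR summits were in the windows of 33 (67.3%, against 43.5% of all genes) and at the promoters of 8 (16.3%, against 10.2%). Their windows had a median of 29023 bp, against 22166 bp over all genes, and the part of window length in these counts was not tested. In the Hedgehog list 4 of 17 genes had a promoter IDR peak. They were gish (signal 651, rank 17), encoding a casein kinase, rdx (223, rank 234), whose product directs Ci to degradation, the co-receptor gene ihog (73.2, rank 2283) and the casein kinase gene dco (71.1, rank 2390). In the Wingless list 4 of 26 had one, namely the co-repressor gene gro (294, rank 123), sgg (263, rank 156), which encodes the kinase GSK3, wls (93.2, rank 1490), needed for Wingless secretion, and the destruction complex gene Apc (83.1, rank 1842). None of the 6 further segment polarity transcription factor genes, gsb, gsb-n, slp1, slp2, mid and H15, had one. The hh promoter, at rank 465, thus fell between rdx and wls in this order, and the nkd promoter, at rank 1380, just above wls.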

How the data were processed

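Each list is in narrowPeak format on dm6, and per the file headers of the deposited READMEs the authors derived it from the alignment of 1 replicate, or of both, with 1 control alignment. Column 7 is the deposited signal score per region, on a scale the authors do not state. Column 9 is the authors' deposited −log10 q value, which was 3.82 in each of the 2426 IDR peaks and so could not rank them. Chromatin was sonicated, per the labels, to 200 to 800 bp. Aligner, peak caller and IDR threshold: not given in the sources used here. Lists on dm3 were not used here.

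Genes, start sites and classes came from Ensembl release 115 (BDGP6.54) and window sequences from the RefSeq Release 6 genome. Of 9 motifs searched, 2 were added after the sequences had been seen. Signed distances from a member gene were taken from the nearest of its start sites. A summit was a promoter one within 500 bp of any protein-coding start site. Otherwise it was assigned to untranslated, coding, intron or intergenic sequence, in that order. Replicate summits within 200 bp counted as matched. Regions were ranked by signal. The members and lists were chosen with earlier results of these data known. Named regions were every IDR region and, per gene, the strongest pooled region in the window and at the promoter. Regions in Acsl, the wg and nkd intronic regions below the threshold, the strongest wg, ci, en and fu summits of single replicates, the arm promoter summits of replicate 1, en upstream summits and the nearest IDR summits outside the windows were picked with their values already known. The counting was tested on simulated data. No tests were run, and the counts were repeated with other flanks, promoter widths, matching distances, stricter lists and each replicate alone. Python 3.11.15, numpy 2.4.6, pandas 2.3.3, scipy 1.17.1 and matplotlib 3.10.9 were used.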

Additional observations from a re-analysis of the deposited data

How the results depend on the processing

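With no flank, 2 of the 10 genes (ptc and nkd) had an IDR summit and 3 summits counted, where 7.54% of all genes had one, and with 20 kb all 10 had one and 15 summits counted, against 60.3% of all genes. The strongest 1213 IDR peaks left 3 genes (hh, ptc and nkd) with 4 summits and 1 gene (hh) with one at the promoter, against 27.2% and 5.51% of all genes. Pooled summits numbered 69 with no flank and 73 among the strongest 15000 regions. With as many of the strongest regions of 1 replicate, 4 genes had a summit in the window in either replicate, since inv dropped out of both. Over all genes these window shares were 43.1% in replicate 1 and 43% in replicate 3. In replicate 1 alone, smo joined hh and nkd at the promoter, giving 3 genes, against 2 in replicate 3. The promoter shares over all genes were 10.7% and 10%. The other alternatives moved no count by over 1.5 times. No paired analysis was possible because there is 1 group. Read depth is unknown, and the lists limit weak regions to the 30000 strongest.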
